A study of Mus musculus with 17 samples.

Results

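The genes described here are 50 genes of the cell cycle and of DNA replication, measured by RNA-Seq in thioglycollate-elicited peritoneal macrophages (PMs). They were named as a list and found by symbol in the expression table, in which all 50 had 1 row among 21683. Replication and mitosis genes were kept apart: 18 members act in DNA replication, 23 in mitosis, and 9 are cyclins, Cdk2, E2F transcription factors or inhibitors of the cyclin-dependent kinases (CDKs), called regulators below.

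The study asked how IKKβ, the kinase that activates the canonical NF-κB pathway, shapes the response of macrophages to Tat, the transcriptional activator protein of HIV. Its 17 libraries fall into 3 groups. The F/F PBS group (n = 6) holds PMs of IKKβF/FLDLR-/- mice, in which both IKKβ alleles are flanked by loxP sites but no Cre is present, given PBS for 12 h. The F/F Tat group (n = 6) holds PMs of the same genotype given 100 nM Tat for 12 h, and the ΔMye Tat group (n = 5) holds PMs of IKKβΔMyeLDLR-/- mice, which carry those floxed alleles and Cre under the control of LysM (Lyz2), given the same dose for the same time. All groups lack the LDL receptor, come from C57BL/6 mice aged 8 weeks that had received 1 mL of 3% thioglycollate, and attached to the plate for 4 h before treatment. The labels put the injection 3 days before collection, whereas the methods give another interval. Cre from LysM acts in neutrophils as well as in macrophages, and cells that escape deletion may remain in such a preparation, which was not tested. Ikbkb, the gene of IKKβ, averaged 23.2 TPM across the F/F Tat libraries and 16.4 TPM across those of ΔMye Tat. ΔMye PMs given PBS were not analysed here, so what separates ΔMye Tat from F/F Tat may have been present before Tat. The labels do not say whether libraries are separate animals, and p-values then measure the spread between these libraries only.

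A cell that enters the cycle is driven past the restriction point by cyclin D and cyclin E with their CDKs, which inactivate the retinoblastoma protein and release E2F factors. E2F factors switch on genes for origin licensing, the MCM helicase, nucleotide synthesis and the polymerases. Later, genes for mitosis are switched on through promoters that hold a CHR element and CCAAT boxes, while CDK inhibitors such as p21 can stop the cycle. Elicited macrophages are mostly non-dividing cells.

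The promoters of 5 members show these elements. They were chosen because their genes moved in different directions while sharing some kinds of element, though not every kind. Mcm6 and Mki67 were higher with Tat in F/F PMs, and Mcm5, Cdk1 and Top2a were lower. Each line gives the 250 bases before the start in RefSeq's table on GRCm38.p6, written 5′ to 3′ on the gene's strand. Capitals mark an E2F site (searched as TTCGCGC or TTGGCGC), a CHR (TTTGAA) or a CCAAT box (CCAAT), each read on both strands. Mcm5 lies upstream at chr8:75109259-75109508, plus strand, Mcm6 at chr1:128359706-128359955, minus strand, Cdk1 at chr10:69352913-69353162, minus strand, Mki67 at chr7:135716380-135716629, minus strand and Top2a at chr11:99024190-99024439, minus strand.
Mcm5: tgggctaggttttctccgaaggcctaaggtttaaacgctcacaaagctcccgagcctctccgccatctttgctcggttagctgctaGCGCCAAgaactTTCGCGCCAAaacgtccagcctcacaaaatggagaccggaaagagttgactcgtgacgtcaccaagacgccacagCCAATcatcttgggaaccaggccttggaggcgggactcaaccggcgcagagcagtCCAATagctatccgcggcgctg
Mcm6: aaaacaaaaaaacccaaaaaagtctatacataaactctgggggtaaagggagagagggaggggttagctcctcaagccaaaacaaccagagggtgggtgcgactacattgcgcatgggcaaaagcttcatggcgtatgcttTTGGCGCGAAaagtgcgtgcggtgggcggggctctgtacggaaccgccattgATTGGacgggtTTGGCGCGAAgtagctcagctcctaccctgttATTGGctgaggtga
Cdk1: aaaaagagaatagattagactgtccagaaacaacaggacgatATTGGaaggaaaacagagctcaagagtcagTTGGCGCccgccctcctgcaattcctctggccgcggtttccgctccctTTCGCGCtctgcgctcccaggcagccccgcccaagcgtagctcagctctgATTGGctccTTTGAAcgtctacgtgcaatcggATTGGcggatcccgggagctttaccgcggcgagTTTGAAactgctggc
Mki67: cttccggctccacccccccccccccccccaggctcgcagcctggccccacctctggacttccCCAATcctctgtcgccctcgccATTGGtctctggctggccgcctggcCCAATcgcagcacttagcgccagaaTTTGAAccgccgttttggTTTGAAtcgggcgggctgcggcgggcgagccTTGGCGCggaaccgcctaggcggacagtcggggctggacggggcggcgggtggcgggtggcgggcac
Top2a: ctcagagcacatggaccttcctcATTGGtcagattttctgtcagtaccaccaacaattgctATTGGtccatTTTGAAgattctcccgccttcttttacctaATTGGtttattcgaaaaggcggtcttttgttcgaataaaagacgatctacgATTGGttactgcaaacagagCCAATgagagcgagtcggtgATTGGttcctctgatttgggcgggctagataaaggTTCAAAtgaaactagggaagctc

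Mcm5 and Mcm6, which encode subunits of the same helicase, both held E2F matches that overlap each other on opposite strands. Both Cdk1 and Mki67 held E2F, CHR and CCAAT matches, and Top2a held CHR and CCAAT matches with no E2F match in these letters. Of the 50 members, 41 had a promoter in the table. From 250 bases before to 50 after the start, an E2F match stood in 6 of 15 replication promoters (40%), 3 of 20 mitosis promoters (15%) and 1 of 6 regulator promoters (16.7%), against 3.89% of all 32817 promoters. A CHR match stood in 14 of 20 mitosis promoters (70%) and 2 of 15 replication promoters (13.3%) but 0 of 6 regulator promoters, against 17.9% of all. A CCAAT match stood in 17 of 20 mitosis promoters (85%), 11 of 15 replication promoters (73.3%) and 2 of 6 regulator promoters (33.3%), against 37.4% of all. An E2F match can share bases with a CCAAT match, as it did in Ccnb1. A match describes letters and is no evidence of binding.

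**Figure D1:**
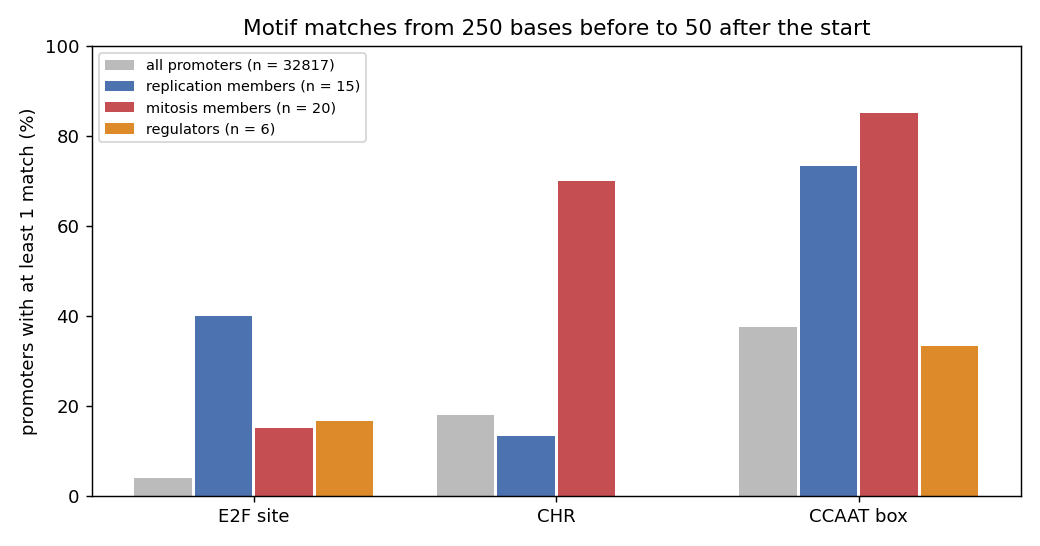
Share of promoters (vertical axis, %) with at least 1 match to an E2F site, a CHR or a CCAAT box, from 250 bases before to 50 after the start, for all promoters in the RefSeq table and for the members of each role. CHR matches stood in 70% of mitosis promoters and 13.3% of replication promoters, and E2F matches in 15% and 40%.

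Most members were scarce in these cells. TPM (the abundance of a transcript after division by its length and by the library total) lets genes be compared with each other. In F/F PBS the mean of the median member was 2.11 TPM, 14 members averaged under 1 TPM and 6 averaged 10 TPM or more. Pcna, the sliding clamp that holds the replicative polymerases on DNA, and Cdkn1a, which encodes the CDK inhibitor p21, stood far above the rest at 192 ± 8.53 TPM and 169 ± 4.01 TPM (mean ± SD, n = 6). Next came Mcm3, the licensing factor Cdt1 and Mcm6 at 19.1, 16.9 and 15.3 TPM. The median mitosis member averaged 1.25 TPM and the median replication member 6.36 TPM. In F/F Tat 28 members averaged under 1 TPM, and so did 28 in ΔMye Tat.

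**Figure D2:**
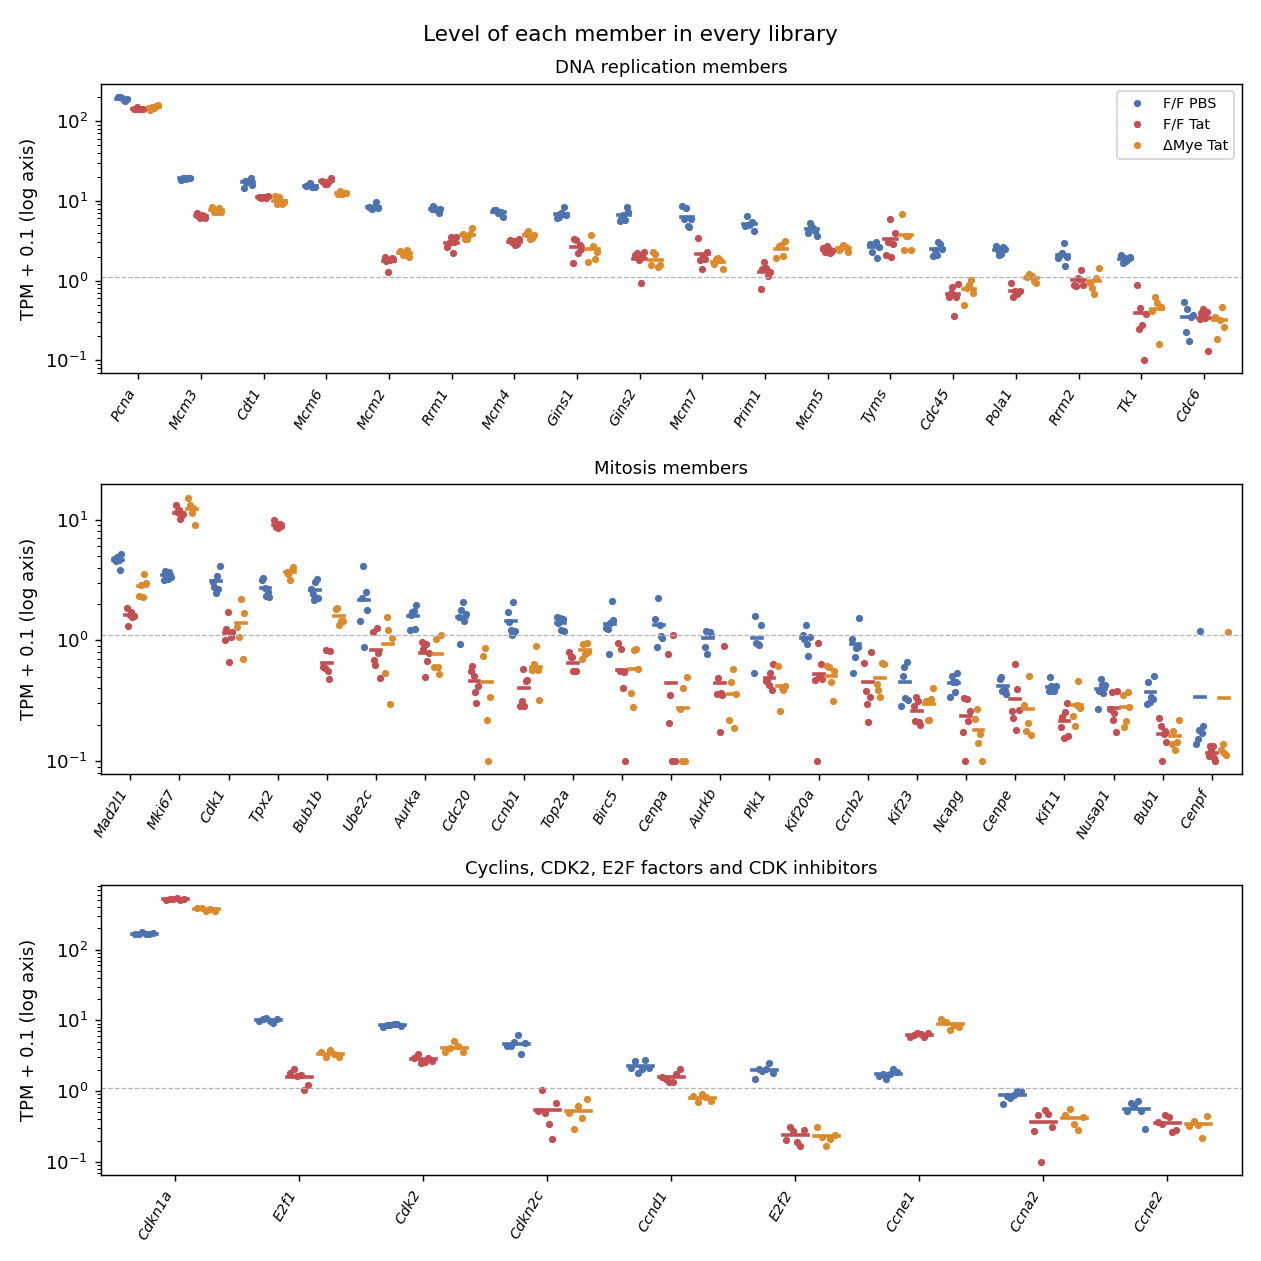
TPM + 0.1 (vertical log axis) of the 50 members in every library, grouped by role and ordered by the F/F PBS mean. Points are libraries, short lines are group means and the dashed line marks 1 TPM. Pcna and Cdkn1a stand above 100 TPM in every library, and 14 members average under 1 TPM in all 3 groups.

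Markers of macrophages and of other cells that the preparation could hold were read in the same libraries. The macrophage markers Adgre1 and Cd68 averaged 499 and 2596 TPM in F/F PBS. With Tat they averaged 441 and 1744 TPM in F/F PMs and 512 and 1886 TPM in ΔMye PMs. All 8 macrophage markers together summed to 25731 to 26724 TPM in F/F PBS, 9573 to 10214 in F/F Tat and 7183 to 7462 in ΔMye Tat, most of it Lyz2, whose means were 22382, 6993 and 4333 TPM. Per the authors' methods, ΔMye mice carry LysM-Cre as a heterozygous knock-in, so Lyz2 may not mark macrophages alike in both genotypes. The part of the knock-in in the Lyz2 level was not tested. The 5 B cell markers summed to 12.4 to 25.7 TPM in F/F PBS, 11.3 to 15.0 in F/F Tat and 8.33 to 13.0 in ΔMye Tat. The 6 T cell markers found summed to 4.55 to 10.5, 5.09 to 6.06 and 11.5 to 12.8 TPM in the same order. All of these lymphocyte markers were above 0 in at least 1 library, and among 6 neutrophil markers Elane was listed at 0 in all libraries. The neutrophil markers summed to 52.3 to 60.7 TPM in F/F PBS, 65.4 to 77.6 in F/F Tat and 87.2 to 105 in ΔMye Tat, nearly all of it S100a8, while Ly6g and Mpo averaged at most 0.351 and 0.0172 TPM in any group. The NK cell list (5 genes) summed to 4.49 to 9.03, 5.13 to 8.33 and 6.45 to 9.17 TPM in F/F PBS, F/F Tat and ΔMye Tat, that of mast cells and eosinophils (7 genes) to 9.01 to 12.4, 8.36 to 11.04 and 6.57 to 9.16 TPM, and that of mesothelial cells and fibroblasts (7 genes) to 22.9 to 31.1, 22.4 to 27.5 and 13.04 to 16.9 TPM. T cell and neutrophil markers were thus highest and mesothelial and fibroblast markers lowest in ΔMye Tat, and the part of these cells in the results was not tested. In bulk samples, fewer cells of a type and less RNA per cell cannot be told apart.

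The comparison of F/F Tat with F/F PBS asks what Tat does when IKKβ is present. Transcripts of most members tested were lower after Tat as deposited, while a small set of members with central roles were higher: Mki67, Tpx2, Ccne1, Cdkn1a and Mcm6. Large falls were those of E2f1, Mcm2, Bub1b and Prim1. A member passed the test here when its adjusted p from limma, fitted on log2(TPM + 0.1) over the genes that reached 1 TPM in 5 or more libraries, was under 0.01. The filter kept 35 members, 17 of replication, 11 of mitosis and 7 regulators. Of these, 8 reached it only through the F/F PBS libraries and so had to be lower elsewhere (Cdc45, Tk1, Top2a, Ccnb1, Cdc20, Birc5, E2f2 and Cdkn2c). Their adjusted p is therefore given from the fit without the filter. The 15 other members stayed below the filter, with no value over 2.15 TPM in any library.

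Of the 35 members tested, 29 fell, 5 rose and 1 (Tyms) did not pass. Among all 10451 genes tested, 67.6% fell and 17% rose, so a fall was the common result in this table. Without the 8 members that reached the filter through F/F PBS alone, 21 of 27 fell and 5 rose, against 66.4% and 17.6% of the 9997 genes that were at 1 TPM in libraries of more than 1 group. After scaling, 14 of these 27 fell and 7 rose, against 35.6% and 38.8%. The median log2 fold change of all tested genes was -0.65, and that of the 35 members was -1.46. These 35 include the 8 that reached the filter through F/F PBS alone and had to be lower. Median-ratio scaling sets the middle of all genes to about 0. With it 20 of the 35 members fell and 7 rose, against 38% and 37.3% of all genes. Without the filter 37 of the 50 members fell and 5 rose (46.7% and 11.7% of 16897 genes), and with scaling as well 21 fell and 7 rose (26.1% and 25%). Past 3-fold, 13 of the 35 fell and 4 rose, against 19.4% and 5.21% of all genes. Among the 13 are Cdc45, Tk1, Ccnb1, Cdc20, E2f2 and Cdkn2c, which reached the filter through F/F PBS alone and had to be lower. No share past 3-fold was taken without them. The values of the F/F Tat libraries lay wholly below those of F/F PBS for 26 of the 35 members tested and wholly above for 4, against 62.4% and 15.3% of all genes tested. Of all 50 members, 31 lay wholly below and 4 wholly above. No share of all genes was taken for this count, so whether it exceeds the common fall cannot be said. Both sets hold the 8 members that reached the filter through F/F PBS alone.

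**Figure D3:**
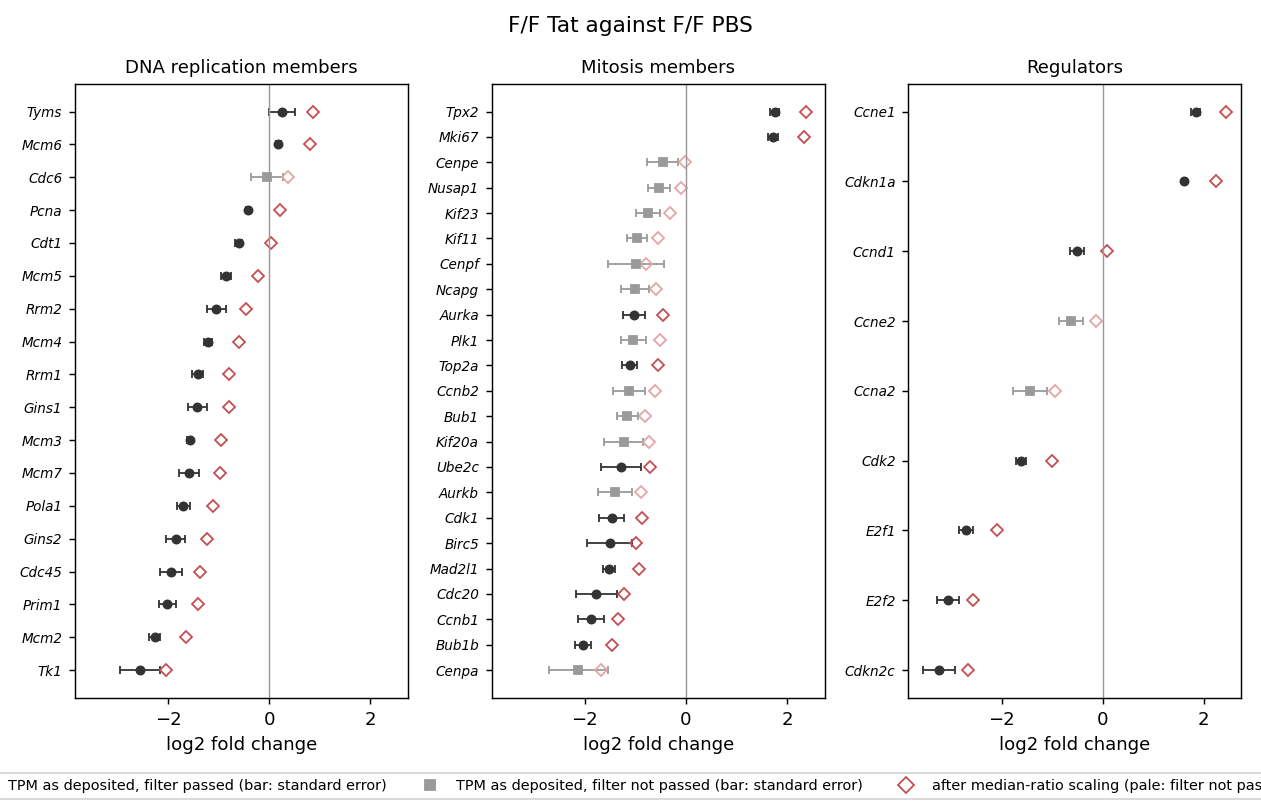
Log2 fold change (horizontal axis) of each member in F/F Tat against F/F PBS, by role. Dark circles are members that passed the filter and grey squares those that did not, with bars for the standard error, and open diamonds are the same values after median-ratio scaling. Tpx2, Mki67, Ccne1 and Cdkn1a lie far to the right on both scales, whereas Pcna, Cdt1 and Ccnd1 lie left of 0 as deposited and right of it after scaling.

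Among replication members, 15 of the 17 tested fell, 1 rose and 1 did not pass, against 67.6% fallen and 17% risen among all genes. After scaling 11 fell and 3 rose, against 38% and 37.3%. Without the 2 members that reached the filter through F/F PBS alone, 13 of 15 fell and 1 rose. After scaling 9 of these 15 fell and 3 rose. Of all genes at 1 TPM in libraries of more than 1 group, 66.4% fell and 17.6% rose, and 35.6% and 38.8% after scaling. The 6 MCM subunits form the ring that unwinds DNA. Mcm2 was 7.83 to 9.68 TPM (median 8.14) in F/F PBS, 1.18 to 1.88 TPM (median 1.75) in F/F Tat, and 2.22, 2.02, 2.17, 2.34 and 1.89 TPM in ΔMye Tat. Its F/F PBS and F/F Tat libraries did not overlap, with a log2 fold change of -2.27 (SE 0.11, adjusted p = 8.81e-14). Mcm3, Mcm4, Mcm5 and Mcm7 fell by 1.57, 1.22, 0.85 and 1.58 on the log2 scale, although the fall of Mcm5 did not pass after scaling (-0.23, adjusted p = 0.0333). Mcm7 shares 26.8% of its 31-base sequences with other genes, and its F/F PBS libraries ran from 4.54 to 8.56 TPM.

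Mcm6 (chr1:128331590-128359664, minus strand, GRCm38) went the other way. It was 14.6 to 16.9 TPM (median 14.9) in F/F PBS and 16.3 to 19.1 TPM (median 17.4) in F/F Tat. The groups overlapped, and the rise was small as deposited, a log2 fold change of 0.18 (SE 0.05, adjusted p = 0.00249), and larger after scaling at 0.82. In F/F PBS Mcm3 was the most abundant subunit and Mcm6 came next, while in F/F Tat Mcm6 stood at 17.4 TPM and the next subunit, Mcm3, at 6.37 TPM. The ratio of Mcm6 to Mcm3 within a library, which no scaling can change, was 0.755 to 0.865 in F/F PBS and 2.51 to 3.17 in F/F Tat.

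Origin licensing and firing factors were lower as well. Cdc45, a component of the active helicase, went from 2.402 ± 0.4095 TPM to 0.571 ± 0.1900 TPM (mean ± SD, n = 6 each), and Gins1 and Gins2, its partners in that complex, fell by 1.42 and 1.85 on the log2 scale. For Gins2, 67.3% of exonic bases overlap Gse1 on the opposite strand, and the strand setting of the libraries is not stated. Cdt1 was 14.3 to 19.2 TPM (median 17.3) in F/F PBS and 10.8 to 11.4 TPM (median 11.01) in F/F Tat. Its fall (-0.60, standard error 0.07, adjusted p = 2.77e-07) was that of the middle of all genes, and its scaled value was 0.03. Cdc6, which loads the MCM ring, averaged 0.249 TPM before and 0.238 TPM after Tat and was not tested.

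Pcna was 181 to 202 TPM (median 193) in F/F PBS and 141 to 148 TPM (median 143) in F/F Tat. The groups did not overlap, and Pcna fell as deposited by 0.42 on the log2 scale (SE 0.04, adjusted p = 9.67e-10) but rose after scaling by 0.22 (adjusted p = 6.76e-04). It shares 23.3% of its 31-base sequences with other genes, foremost a Pcna pseudogene. The enzymes that start DNA chains were lower on both scales. Prim1, the catalytic primase subunit, was 4.03 to 6.38 TPM (median 4.91) in F/F PBS and 0.693 to 1.61 TPM (median 1.24) in F/F Tat, with a log2 fold change of -2.02 (SE 0.17, adjusted p = 1.25e-09). Pola1, the catalytic subunit of polymerase alpha that extends the primer, went from 2.29 ± 0.242 TPM to 0.639 ± 0.108 TPM (-1.70 on the log2 scale, adjusted p = 2.94e-10).

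Nucleotide synthesis genes did not move together. Rrm1, the large subunit of ribonucleotide reductase, was 6.95 to 8.48 TPM (median 7.81) in F/F PBS and 2.13 to 3.38 TPM (median 2.896) in F/F Tat, with a log2 fold change of -1.42 (SE 0.11, adjusted p = 2.88e-10). Rrm2, the small subunit made mainly in S phase, went from 2.01 ± 0.491 TPM to 0.913 ± 0.185 TPM, and its fall of 1.05 on the log2 scale did not pass after scaling (-0.46, adjusted p = 0.0458). Tk1, the thymidine kinase of cycling cells, was 1.55 to 1.98 TPM (median 1.802) in F/F PBS and 0 to 0.788 TPM (median 0.231) in F/F Tat, a log2 fold change of -2.55 (SE 0.41, adjusted p = 2.07e-05). Tyms, thymidylate synthase, spread widely in F/F Tat (1.88 to 5.76 TPM (median 2.85)) around 2.504 ± 0.412 TPM in F/F PBS. Its log2 fold change was 0.25 (adjusted p = 0.362) as deposited and 0.86 (adjusted p = 0.00485) after scaling.

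Among mitosis members, 9 of the 11 tested fell and 2 rose, against 67.6% and 17% of all genes. After scaling 5 fell and 2 rose, against 38% and 37.3%. Without the 4 members that reached the filter through F/F PBS alone, 5 of 7 fell (71.4%) and 2 rose. After scaling 3 of these 7 fell (42.9%) and 2 rose. Of all genes at 1 TPM in libraries of more than 1 group, 66.4% fell, and 35.6% after scaling, so the shares that fell were near those of all genes. Summed over the role, mitosis transcripts changed little, from 32.0 ± 1.08 TPM with PBS to 29.2 ± 2.37 TPM with Tat in F/F PMs. Without Mki67 and Tpx2 the other 21 summed to 26.0 ± 1.33 TPM with PBS and 8.94 ± 0.907 TPM with Tat. These 2 genes were therefore set apart in the description, a split made after their values were seen.

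Mki67 (chr7:135689784-135716361, minus strand, GRCm38) encodes Ki-67, a protein of the surface of mitotic chromosomes used as a marker of cycling cells. It was 3.07 to 3.67 TPM (median 3.33) in F/F PBS, 9.995 to 13.02 TPM (median 11.2) in F/F Tat, and 15.1, 13.2, 11.3, 12.4 and 8.88 TPM in ΔMye Tat. Every library given Tat was above every F/F PBS library. Mki67 rose with Tat with a log2 fold change of 1.73 (SE 0.10, adjusted p = 4.38e-12), and by 2.35 after scaling.

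Top2a, the topoisomerase that untangles sister chromatids and a marker often read beside Ki-67, was 1.09 to 1.47 TPM (median 1.35) in F/F PBS, 0.452 to 0.697 TPM (median 0.541) in F/F Tat, and 0.598, 0.826, 0.671, 0.858 and 0.697 TPM in ΔMye Tat. No library given Tat reached the lowest F/F PBS library. Top2a fell in F/F Tat by 1.11 on the log2 scale (limma adjusted p = 2.15e-06) and by 0.55 after scaling (adjusted p = 0.00316). The ratio of Mki67 to Top2a within a library was 2.09 to 2.99 in F/F PBS, 18.4 to 23.9 in F/F Tat and 12.8 to 25.2 in ΔMye Tat. The levels of Mki67 and Top2a thus parted with Tat in every library. Mki67 shares 1.26% of its 31-base sequences with other genes and has no exon that overlaps another gene.

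Tpx2 (chr2:152847964-152895321, plus strand, GRCm38) encodes a spindle assembly factor that activates the kinase Aurora A. It was 2.18 to 3.19 TPM (median 2.502) in F/F PBS and 8.48 to 9.87 TPM (median 8.88) in F/F Tat, without overlap. Its log2 fold change of 1.75 (SE 0.10, adjusted p = 1.69e-12) became 2.37 after scaling. Aurka, the gene of Aurora A, went from 1.49 ± 0.291 TPM to 0.685 ± 0.178 TPM and fell by 1.03 on the log2 scale, which did not pass after scaling (adjusted p = 0.0765).

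The spindle checkpoint, which delays the separation of chromatids until all are attached, was lower. Bub1b, the gene of BubR1, was 2.06 to 3.11 TPM (median 2.45) in F/F PBS and 0.3795 to 0.729 TPM (median 0.493) in F/F Tat. Its groups did not overlap, with a log2 fold change of -2.04 (SE 0.16, adjusted p = 4.34e-10). Mad2l1, the gene of Mad2, was the most abundant mitosis member of F/F PBS at 3.75 to 5.08 TPM (median 4.57) and was 1.21 to 1.76 TPM (median 1.502) in F/F Tat, a log2 fold change of -1.53 (SE 0.12, adjusted p = 3.95e-10). Bub1 averaged 0.272 and 0.0688 TPM in the same order and lay below the filter.

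Cdk1, the kinase that drives entry into mitosis, was 2.35 to 4.03 TPM (median 2.82) in F/F PBS and 0.566 to 1.601 TPM (median 1.02) in F/F Tat. The groups did not overlap, and Cdk1 fell with a log2 fold change of -1.46 (SE 0.25, adjusted p = 1.71e-05). Its partner cyclin B1, Ccnb1, was 0.998 to 1.96 TPM (median 1.21) and 0.184 to 0.484 TPM (median 0.287) in the same order and fell by 1.88 on the log2 scale (limma adjusted p = 2.96e-06), with 27.7% of its 31-base sequences shared with other genes. Cdc20, the activator of the anaphase-promoting complex, was 0.835 to 1.96 TPM (median 1.51) and 0.2002 to 0.509 TPM (median 0.363) and fell by 1.77 as deposited (adjusted p = 9.32e-04). After scaling its log2 fold change of -1.23 did not pass (adjusted p = 0.0172). Ube2c, the ubiquitin-conjugating enzyme of that complex, varied widely among F/F PBS libraries, from 0.776 to 3.99 TPM. The groups of Ube2c overlapped, and its fall of 1.29 (adjusted p = 0.00536) was lost after scaling (adjusted p = 0.111) and without any 1 of F/F PBS libraries 2, 3 and 5 or F/F Tat libraries 8, 9 and 12. Birc5, which encodes survivin, fell by 1.51 with overlap of the groups, a fall that did not pass after scaling (adjusted p = 0.0908).

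The 12 mitosis members below the filter were the kinases Plk1, Aurkb and Bub1, cyclin B2 (Ccnb2), the kinesins Kif11, Kif20a and Kif23, the centromere genes Cenpa, Cenpe and Cenpf, the condensin gene Ncapg and Nusap1. Their means ran from 0.2397 to 1.25 TPM with PBS and from 0.0176 to 0.422 TPM in F/F Tat. Every one had the lower mean in F/F Tat as deposited, where the median log2 fold change of all tested genes was -0.65. With scaling and no filter, 1 of all 15 members below the filter passed as lower. Cenpa, the centromeric histone, had the largest difference, 1.25 against 0.342 TPM. In the fit without the filter 16 of all 23 mitosis members fell and 2 rose, against 46.7% and 11.7% of all genes. With scaling as well 6 fell and 2 rose, against 26.1% and 25%. At these levels the size of the fall therefore cannot be told from that of all genes for most of them.

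Among the 7 regulators tested, 5 fell and 2 rose, against 67.6% and 17% of all genes. After scaling 4 fell and 2 rose, against 38% and 37.3%. Without the 2 that reached the filter through F/F PBS alone, 3 of 5 fell (60%) and 2 rose. After scaling 2 of these 5 fell (40%) and 2 rose. Of all genes at 1 TPM in libraries of more than 1 group, 66.4% fell and 17.6% rose, and 35.6% and 38.8% after scaling. E2f1 (chr2:154559407-154569892, minus strand, GRCm38), an activator of replication genes, was 8.98 to 10.6 TPM (median 10.1) in F/F PBS, 0.941 to 1.96 TPM (median 1.58) in F/F Tat, and 3.47, 2.895, 3.69, 3.29 and 2.91 TPM in ΔMye Tat. The F/F groups did not overlap, and E2f1 fell with Tat with a log2 fold change of -2.71 (SE 0.14, adjusted p = 3.67e-13). E2f2, another activator of this family, was 1.37 to 2.41 TPM (median 1.89) in F/F PBS and 0.0688 to 0.216 TPM (median 0.137) in F/F Tat (-3.05 on the log2 scale, adjusted p = 9.20e-11). Both fell on either scale, by 2.10 and 2.56 after scaling.

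The 2 CDK inhibitors moved in opposite directions. Cdkn1a (chr17:29090976-29100727, plus strand, GRCm38) was 165 to 176 TPM (median 168) in F/F PBS, 509 to 530.0 TPM (median 519) in F/F Tat, and 384, 387, 358, 377 and 349 TPM in ΔMye Tat. The 3 groups did not overlap, and Cdkn1a rose with Tat with a log2 fold change of 1.62 (SE 0.03, adjusted p = 1.06e-20). Cdkn2c, which encodes p18, an inhibitor of the kinases that pair with cyclin D, was 3.22 to 6.16 TPM (median 4.47) in F/F PBS and 0.111 to 0.941 TPM (median 0.407) in F/F Tat. Its groups did not overlap, with a log2 fold change of -3.24 (adjusted p = 4.66e-08 without the filter, which it reached through F/F PBS alone).

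Cyclin E and its kinase parted. Ccne1 (chr7:38097984-38107534, minus strand, GRCm38), the gene of cyclin E1, was 1.41 to 1.97 TPM (median 1.64) in F/F PBS, 5.79 to 6.56 TPM (median 6.17) in F/F Tat, and 10.5, 9.36, 7.31, 8.48 and 7.88 TPM in ΔMye Tat. The F/F groups did not overlap, and the rise had a log2 fold change of 1.84 (SE 0.10, adjusted p = 5.18e-13). Cdk2, the kinase that cyclin E activates, was 8.07 to 8.95 TPM (median 8.61) in F/F PBS and 2.36 to 3.25 TPM (median 2.704) in F/F Tat, a log2 fold change of -1.62 (SE 0.09, adjusted p = 3.36e-12). Ccne2, the gene of cyclin E2, averaged 0.463 and 0.2597 TPM and Ccna2, cyclin A2, 0.7696 and 0.261 TPM, both below the filter. The ratio of Ccne1 to Cdk2 within a library was 0.164 to 0.224 in F/F PBS and 1.87 to 2.73 in F/F Tat, and that of Cdkn1a to Cdk2 was 18.8 to 20.8 and 160.3 to 219 in the same order.

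Ccnd1, the gene of cyclin D1, was 1.71 to 2.65 TPM (median 2.02) in F/F PBS and 1.23 to 1.93 TPM (median 1.44) in F/F Tat. The groups overlapped, and its fall of 0.51 on the log2 scale (SE 0.14, adjusted p = 0.00284) turned to 0.10 (adjusted p = 0.512) after scaling. LTO1 overlaps 23.4% of the exonic bases of Ccnd1 on the opposite strand.

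**Figure D4:**
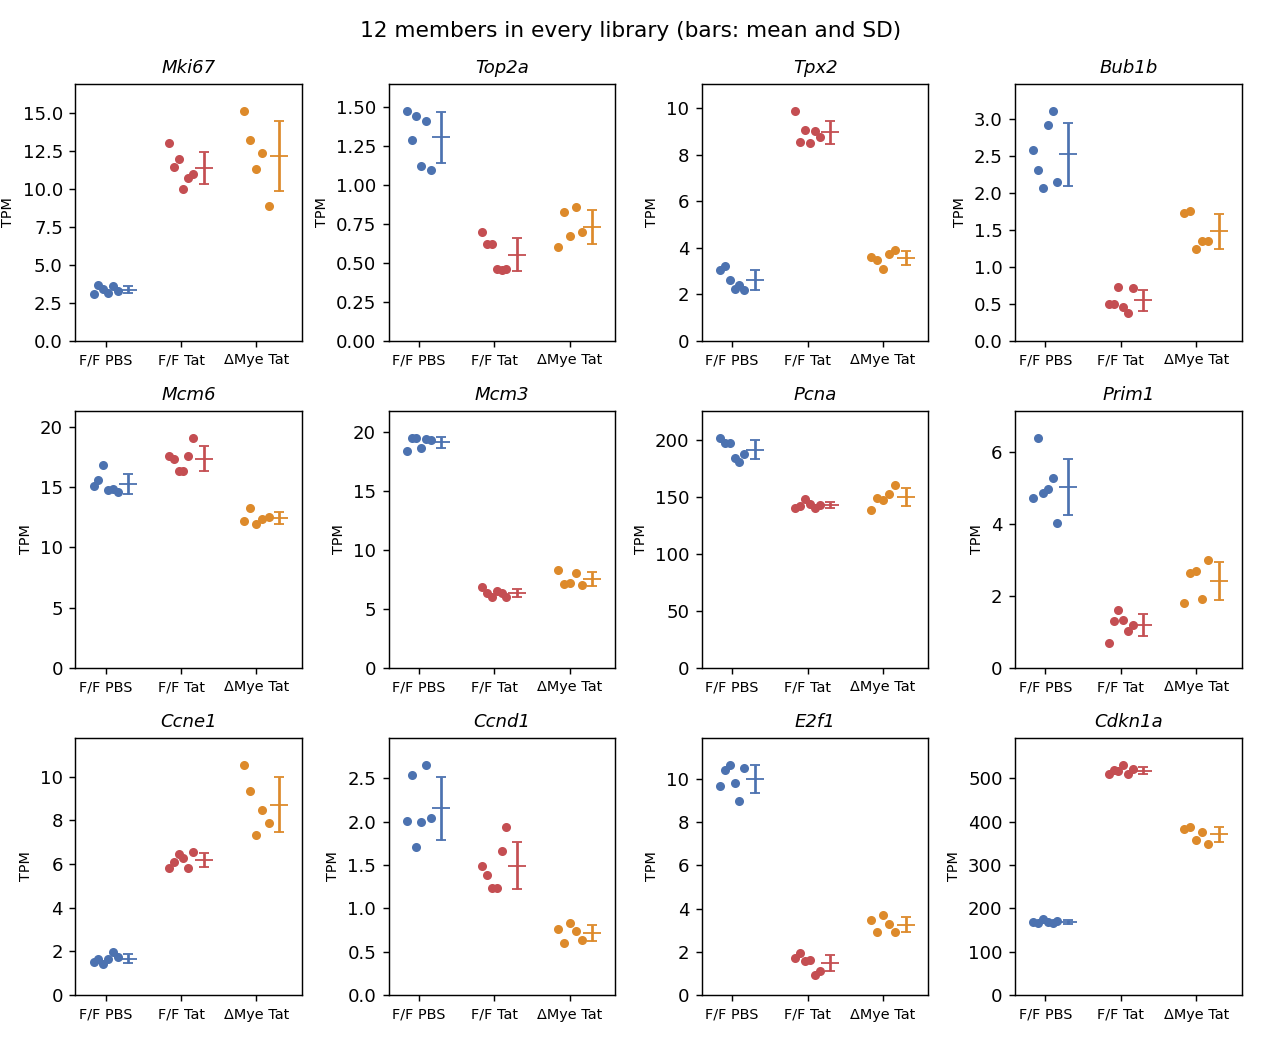
TPM (vertical axis, from 0) of 12 members in every library of F/F PBS (n = 6), F/F Tat (n = 6) and ΔMye Tat (n = 5), with the mean and SD beside the points. Mki67 and Ccne1 are higher in all Tat libraries than in F/F PBS, Tpx2 is highest in F/F Tat, and Bub1b, Prim1 and E2f1 are lowest in F/F Tat with ΔMye Tat between the other groups.

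The comparison of ΔMye Tat with F/F Tat asks which of these levels differ between Tat-treated PMs of the ΔMye and F/F genotypes. For most members no difference passed the test. Tpx2, Mcm6, Cdkn1a and Ccnd1 were lower in ΔMye Tat, and E2f1, Bub1b, Mad2l1, Prim1, Pola1, Mcm3, Cdk2 and Ccne1 were higher. Of the 35 members tested, 4 were lower, 8 were higher and 23 did not pass, against 8.87% lower and 38.8% higher among all genes. After scaling 5 were lower and 5 higher, against 19.4% and 15.9%. No member passed 3-fold, as 0.316% and 0.44% of all genes did, lower and higher. The values of ΔMye Tat lay wholly below F/F Tat for 4 of the 35 members tested and wholly above for 8, against 8.01% and 28.6% of all genes tested. The median log2 fold change of all tested genes was 0.22 and that of the members 0.18.

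**Figure D5:**
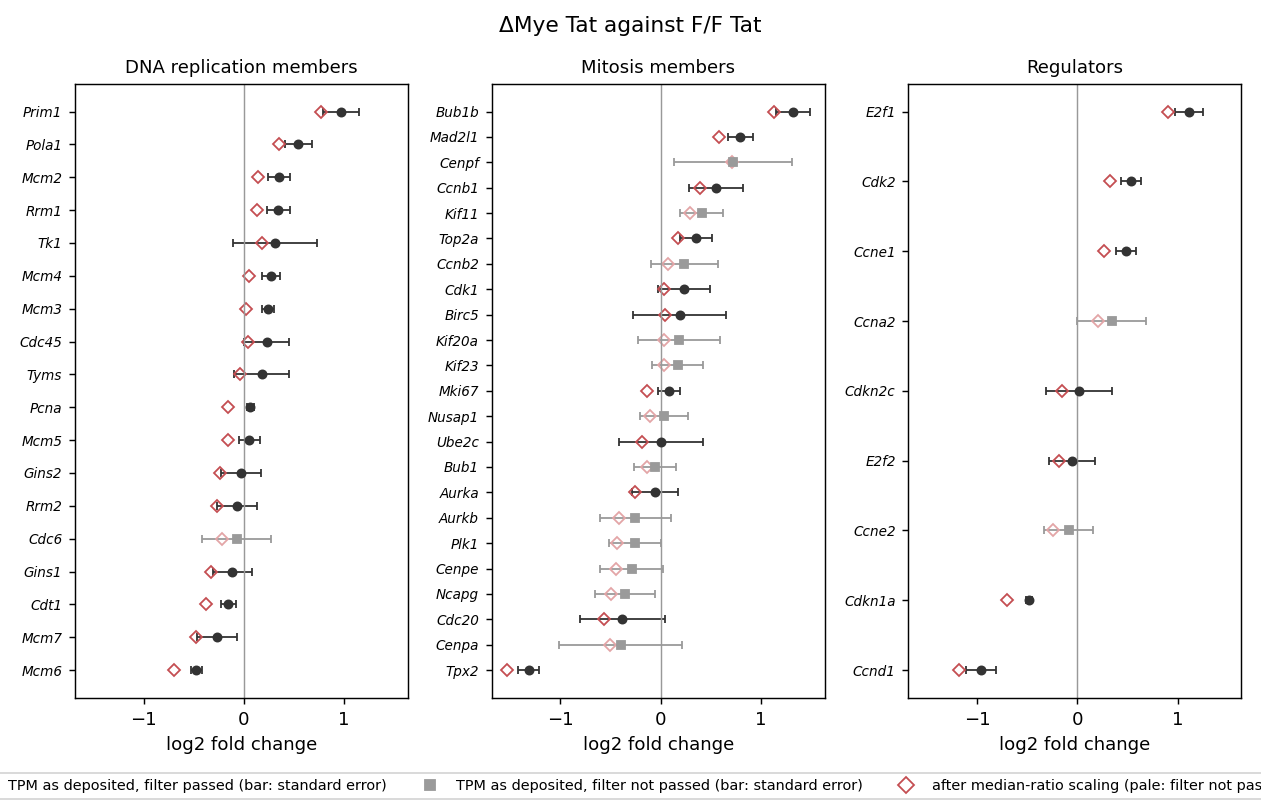
Log2 fold change (horizontal axis) of each member in ΔMye Tat against F/F Tat, by role, with the symbols of the plot of Tat against PBS. Tpx2 at -1.31 and Ccnd1 at -0.96 lie to the left on both scales and Bub1b at 1.32 and E2f1 at 1.11 to the right on both, while Ccnd1 and Tpx2 are the only members past -0.9 among those that passed the filter.

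In mitosis, the 2 members that had risen with Tat differed from each other. Tpx2 was 3.59, 3.46, 3.06, 3.72 and 3.92 TPM in ΔMye Tat, against at least 8.48 TPM in F/F Tat, and fell with a log2 fold change of -1.31 (SE 0.10, adjusted p = 3.11e-09). Mki67 had a log2 fold change of 0.08 with a 95% interval of -0.14 to 0.31 (adjusted p = 0.504), and -0.13 after scaling. The ratio of Tpx2 to Bub1b within a library was 0.759 to 1.38 in F/F PBS, 12.3 to 23.7 in F/F Tat and 1.98 to 2.91 in ΔMye Tat.

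Of the 3 checkpoint genes, Bub1b and Mad2l1 were higher in ΔMye Tat, while Bub1 lay below the filter, with a mean of 0.0604 TPM against 0.0688 TPM in F/F Tat. Bub1b was 1.73, 1.75, 1.24, 1.35 and 1.35 TPM in ΔMye Tat, above every F/F Tat library and below every F/F PBS library. It rose with a log2 fold change of 1.32 (SE 0.17, adjusted p = 2.47e-06) and by 1.13 after scaling. Mad2l1 was 2.23, 2.795, 2.201, 3.47 and 2.87 TPM in ΔMye Tat, again between the other groups without overlap, with a log2 fold change of 0.79 (SE 0.13, adjusted p = 2.95e-05). The other 8 mitosis members tested did not pass, with log2 fold changes from -0.38 (Cdc20) to 0.55 (Ccnb1).

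In replication, Mcm6 was 12.2, 13.3, 11.97, 12.4 and 12.6 TPM in ΔMye Tat, below every library of both other groups. Its log2 fold change of -0.47 (SE 0.05, adjusted p = 4.85e-07) was -0.69 after scaling. Prim1 was 1.799, 2.63, 2.701, 1.91 and 2.99 TPM in ΔMye Tat, above every F/F Tat library, and rose by 0.97 (adjusted p = 1.46e-04). Pola1 rose by 0.54 and Mcm3 by 0.24 as deposited, and neither passed after scaling (0.35 and 0.02). Mcm2 and Mcm4 missed the threshold (adjusted p = 0.0112 and 0.0105). Cdt1 was 11.5, 8.91, 11.1, 8.96 and 9.45 TPM in ΔMye Tat and passed as lower after scaling alone (-0.37, adjusted p = 2.87e-04). Pcna was 139, 149, 148, 153 and 161 TPM, with a log2 fold change of 0.06 and a 95% interval of -0.01 to 0.14.

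Among regulators, Ccnd1 was 0.761, 0.598, 0.825, 0.738 and 0.633 TPM in ΔMye Tat, under the lowest F/F Tat library. It fell with a log2 fold change of -0.96 (SE 0.15, adjusted p = 2.31e-05) and by 1.17 after scaling. Cdkn1a fell by 0.48 on the log2 scale (SE 0.03, adjusted p = 7.41e-11) and by 0.70 after scaling, and stayed above every F/F PBS library. E2f1 rose with a log2 fold change of 1.11 (SE 0.14, adjusted p = 2.50e-06) and by 0.91 after scaling, while E2f2 did not pass (-0.05, 95% interval -0.53 to 0.43). In ΔMye Tat E2f2 was 0.207, 0.124, 0.0694, 0.111 and 0.139 TPM and Cdkn2c was 0.3903, 0.195, 0.513, 0.324 and 0.677 TPM, both as low as in F/F Tat. Cdk2 rose by 0.54 and Ccne1 by 0.48, and the rise of Ccne1 did not pass after scaling (0.26, adjusted p = 0.0201).

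ΔMye Tat was also set against F/F PBS, which gives the level in Tat-treated ΔMye PMs relative to F/F PMs given PBS. Genotype and Tat differ together in this comparison, and it shares libraries with both others. Of the 35 members tested, 29 were lower and 4 higher (Mki67, Tpx2, Ccne1 and Cdkn1a), against 58.8% and 17.5% of all genes. Among the 35 are the 8 that reached the filter through F/F PBS alone. These had to be lower here too, and no share was taken without them. After scaling 22 were lower and 5 higher, against 33.9% and 33.8%. The 4 higher members had log2 fold changes of 1.81 for Mki67, 0.44 for Tpx2, 2.32 for Ccne1 and 1.13 for Cdkn1a. E2f1 was lower by 1.60, Bub1b by 0.73 and Mad2l1 by 0.74 as deposited. After scaling Bub1b and Mad2l1 did not pass (adjusted p = 0.0781 and 0.0292).

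Further lists, 1 for each role, give the rest of these pathways. Genes that reached the filter through F/F PBS alone had to be lower with Tat and were left in the counts of these lists. They were not counted apart, so the shares that fell cannot be read without them. Of 44 other replication genes tested, 37 fell and 5 rose in F/F Tat against F/F PBS, and 27 fell and 8 rose after scaling. As shares these are 84.1% and 11.4% as deposited, where all genes had 67.6% and 17%, and 61.4% and 18.2% after scaling, where all genes had 38% and 37.3%. Without the filter 41 of 59 fell (69.5%) and 5 rose (8.47%) as deposited, against 46.7% and 11.7% of all genes. Gmnn, the gene of geminin, which blocks Cdt1, averaged 14.05 TPM with PBS and 1.51 TPM with Tat (-3.15, adjusted p = 3.14e-13). Dnmt1, the maintenance DNA methyltransferase, averaged 33.9 and 5.65 TPM, and Dctpp1, which clears modified dCTP, 31.5 and 5.503 TPM, both fallen. Timeless, a protein of the replication fork, rose instead, from 1.68 ± 0.266 TPM to 12.6 ± 0.583 TPM, and was 2.88 ± 0.601 TPM in ΔMye Tat (log2 fold change -2.12 against F/F Tat, adjusted p = 4.81e-11). In ΔMye Tat against F/F Tat, 4 of the 44 genes were lower (9.09%) and 12 higher (27.3%), against 8.87% and 38.8% of all genes. After scaling 5 were lower (11.4%) and 5 higher (11.4%), against 19.4% and 15.9%.

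Of 29 other mitosis genes tested, 20 fell and 3 rose with Tat, and 15 fell and 7 rose after scaling. The share that fell as deposited, 69%, was near the 67.6% of all genes, and 51.7% fell after scaling, where all genes had 38%. Without the filter 32 of 63 fell (50.8%) and 3 rose (4.76%) as deposited, against 46.7% and 11.7% of all genes. Cdc25b, the phosphatase that activates CDKs, averaged 5.61 TPM with PBS and 0.142 TPM with Tat (-4.62), and Stmn1, a microtubule regulator, 12.9 and 3.15 TPM. The mean of Cdc25b with Tat lay under the 1 TPM of the filter, so its adjusted p is not given. Pttg1, the gene of securin, rose from 70.5 ± 6.76 TPM to 266 ± 5.296 TPM, and Cks2, a small partner of CDKs, from 5.34 ± 1.46 TPM to 20.2 ± 1.59 TPM. Both were lower in ΔMye Tat than in F/F Tat, by 0.62 and 0.91 on the log2 scale. Among all 29 genes, 2 were lower (6.9%) and 5 higher (17.2%) in that comparison, against 8.87% and 38.8% of all genes. After scaling 3 were lower (10.3%) and 2 higher (6.9%), against 19.4% and 15.9%.

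The 41 other regulators of G1 and S phase tested were mixed, with 23 fallen and 15 risen as deposited and 13 fallen and 17 risen after scaling, so the more common direction depended on the scale (67.6% and 17% of all genes as deposited, 38% and 37.3% after scaling). Ccnd2, the gene of cyclin D2, rose from 1.93 ± 0.2699 TPM to 69.5 ± 3.96 TPM with a log2 fold change of 5.11 (SE 0.08, adjusted p = 7.25e-21), unlike Ccnd1. Gadd45b, a stress-induced inhibitor of growth, averaged 81.1 TPM with PBS, 531 TPM with Tat in F/F PMs and 474 TPM with Tat in ΔMye PMs. Rbl2, the gene of the retinoblastoma relative p130, and Sesn1, a stress-response gene, fell by 2.71 and 3.19 on the log2 scale. In ΔMye Tat against F/F Tat, 12 of these regulators were lower (29.3%) and 15 higher (36.6%) as deposited, against 8.87% and 38.8% of all genes, so the share that was higher was near that of all genes. After scaling 14 were lower and 10 higher, against 19.4% and 15.9% of all genes.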

How the data were processed

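RNA-Seq was analysed in 17 libraries, grouped by their labels. Per the authors' methods, the deposited TPM values were estimated with Salmon against Ensembl transcripts of GRCm38. No normalization between libraries is stated for them, and their strand setting is not given in the sources used here. Read numbers cannot be had from TPM, so depth is unknown here and precision rests on how far libraries of a group differ. Rows at 1 TPM or more in 5 or more libraries (10451 of 21683) entered limma 3.58.1 (R 4.3.3, eBayes with trend) as log2(TPM + 0.1), in one fit of the 3 groups with 14 residual degrees of freedom and Benjamini-Hochberg adjustment. A fold change on this scale understates the change of low genes. The threshold was an adjusted p under 0.01. The script was tested on simulated data.

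Values are given beside those after median-ratio scaling, since the median gene moved by -0.65, 0.22 and -0.43 (log2) in F/F Tat against F/F PBS, ΔMye Tat against F/F Tat and ΔMye Tat against F/F PBS as deposited, and by -0.03, 0.01 and -0.02 after scaling. Members described one by one were 8 fixed ones, the most abundant of each of 12 functional groups, the 3 largest changes per role and comparison, and those that passed against the direction of most of their role. Other genes described beside these members or set in ratios were chosen after their values were seen. The members and lists were chosen with earlier results of these data known. The other lists were described by their counts and the 4 largest changes each. Coordinates, exon overlaps and shared 31-base sequences came from GENCODE M21, and promoters from RefSeq's table. The alternatives changed the pseudocount (0.5, 1), the filter (none, 5 TPM), the scaling (median-ratio, quantile), the libraries (only the groups compared, each library left out) and the test (robust eBayes weighted by array, exact permutation per gene).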

Additional observations from a re-analysis of the deposited data

Results flagged for a closer look

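Member values were screened for single libraries far from the others of their group by Dixon's criterion, in 150 sets of values (50 members in 3 groups). Chance marks about 1 set in 20, and 9 were marked, so no explanation was sought. Cenpf, which encodes a kinetochore protein, was 1.10 TPM in F/F PBS library 4, where the next value was 0.0940 TPM, and 1.07 TPM in ΔMye Tat library 23, where the next was 0.0397 TPM. Mcm2 was 9.68 TPM in F/F PBS library 5 and 1.18 TPM in F/F Tat library 9, and with either left out the groups still differed. Tyms was 6.67 TPM in ΔMye Tat library 19, with the next at 3.54 TPM. Pola1 was 0.841 TPM in F/F Tat library 7, its highest value in that group. Gins2 was 0.842 TPM in F/F Tat library 10 and Cdc6 was 0.0301 TPM in F/F Tat library 12, both lowest in their group. Kif11 was 0.395 TPM in F/F PBS library 2.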

How the results depend on the processing

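Of 57 differences past the threshold among the named members, 34 kept direction and threshold under every alternative run, 18 missed the threshold under at least 1 and 6 turned direction under at least 1, all of these under scaling or quantile normalization (Bub1b in ΔMye Tat against F/F PBS counts in both of the last numbers). The cause was not tested. No paired analysis was possible because the groups share no replicate numbers. Depth is unknown for TPM. Without F/F PBS libraries 3 and 4, which held the most B cell marker transcript (an alternative added after seeing the data), every count of members by role and direction was as in the main fit.

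In F/F Tat against F/F PBS, the count of mitosis members lower (9) was 16 without a filter, 5 with median-ratio scaling, 2 with quantile normalization and 0 with a filter at 5 TPM, which leaves fewer genes. Replication members higher (1) were 3 with median-ratio scaling, with or without the filter, and 2 with quantile normalization. With the 5 TPM filter 8 replication members and 2 regulators were lower. In ΔMye Tat against F/F Tat, replication members higher (3) were 1 with median-ratio scaling (also without a filter, an addition made after seeing the data), quantile normalization, the 5 TPM filter or only the groups compared, 0 with the exact permutation test, and 3 to 5 with each library left out (5 without F/F Tat library 12). Replication members lower (1) were 2 with either scaling, and without the filter too. Regulators higher (3) were 1 with quantile normalization and with scaling without a filter. With the 5 TPM filter 0 mitosis members were higher and 1 regulator lower. In ΔMye Tat against F/F PBS, replication members lower (16) were 9 with the 5 TPM filter and 10 with quantile normalization, and 1 was higher with either scaling. Mitosis members lower (8) were 3 with median-ratio scaling, 0 with quantile normalization and 0 with the 5 TPM filter. Mitosis members higher (2) were 1 by the permutation test, and regulators lower (5) were 2 with the 5 TPM filter. Leaving out each library moved the count of mitosis members lower between 7 and 9 in both comparisons with F/F PBS.

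Log2 fold changes that turned direction, in F/F Tat against F/F PBS, were Pcna (0.22 scaled), Cdt1 (0.027 scaled, 0.020 quantile) and Ccnd1 (0.10 scaled, 0.62 quantile). In ΔMye Tat against F/F PBS they were Mcm6 (0.12 scaled, 0.13 quantile), Pcna (0.059 scaled) and Bub1b (0.083 quantile). Scaled values were the same without the filter. In ΔMye Tat against F/F Tat only differences that did not pass turned: Mki67 (-0.13 scaled, -0.13 quantile), Pcna (-0.16 scaled, -0.0026 quantile), Cdk1 (-0.060 quantile), Ube2c (-0.19 scaled, -0.32 quantile) and Cdkn2c (-0.15 scaled, -0.33 quantile, -0.016 and -0.017 with pseudocounts of 0.5 and 1, -0.18 with robust eBayes). With each library left out, these ran from -0.71 to 0.066 for Cdc20, -0.23 to 0.23 for Cdkn2c, -0.16 to 0.053 for E2f2, -0.023 to 0.64 for Tk1 and -0.24 to 0.36 for Ube2c.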
